A study of Mus musculus with 36 samples.

Results

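The clustered protocadherins are the genes of the alpha, beta and gamma protocadherin clusters, which lie one after the other on mouse chromosome 18. They were taken from the count tables by their symbols (Pcdha, Pcdhb, Pcdhga, Pcdhgb or Pcdhgc followed by a number, or by c and a number). This gave 58 of 21699 genes: 14 of the alpha, 22 of the beta and 22 of the gamma cluster. Their RNA was measured by bulk RNA-seq in gonads of 4 genotypes (controls and KO mutants, each XX and XY), with 3 libraries per genotype at embryonic day E11.5 and 3 at E12.5. KO embryos carried the miR-17~92 del/del deletion with the transgene Tg(CAG-cre)1Nagy, whose Cre, driven by the broadly active CAG promoter, removes the floxed microRNA cluster, so the loss was not limited to the gonad. Controls are labelled WT. The floxed mice used for breeding were of mixed C57BL/6 and 129S4/SvJae background, and that of the Cre line is not stated. Each library held 2 pairs of gonads. At E11.5 the tissue was the gonad with the adjoining mesonephros, the transient embryonic kidney, and at E12.5 the gonad alone. The library kit also changed between the stages, so stage, tissue and kit cannot be told apart and each stage was analysed separately.

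Clustered protocadherins are cell-surface cadherins that bind the same isoform on a neighbouring cell. They are best known in the nervous system, where each neuron switches on a small set of the promoters, through DNA looping by CTCF and cohesin, and so acquires an identity by which its own branches recognise and avoid each other. In the alpha and gamma clusters each variable first exon, which encodes the extracellular and transmembrane parts, is spliced to constant exons shared by the whole cluster, and these encode a common cytoplasmic tail. Beta genes have no constant exons and stand as separate transcription units. The members named with a c (Pcdhac1, Pcdhac2, Pcdhgc3, Pcdhgc4 and Pcdhgc5) are the C-type isoforms, whose promoters are used more uniformly between neurons than those of the other members.

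The deleted microRNAs fall into 4 seed families. Bases 2 to 8 of a mature microRNA, its seed, pair with target transcripts, and the seeds below are in capitals. They are shown because the same letters were searched for in the 3′ untranslated regions (UTRs) of the protocadherins. The 6 mature sequences (RefSeq, GRCm38.p6, forward strand of chromosome 14, between 115043684 and 115044496) are:
mmu-miR-17-5p: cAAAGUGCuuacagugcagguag
mmu-miR-20a-5p: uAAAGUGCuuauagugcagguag
mmu-miR-18a-5p: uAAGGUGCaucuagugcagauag
mmu-miR-19a-3p: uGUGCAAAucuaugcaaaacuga
mmu-miR-19b-3p: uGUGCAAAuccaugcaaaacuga
mmu-miR-92a-3p: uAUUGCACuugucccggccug
miR-17 and miR-20a share a seed, as do miR-19a and miR-19b.

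The matching letters on the transcript are GCACTTT for the miR-17 family, GCACCTT for miR-18, TTTGCAC for miR-19 and GTGCAAT for miR-92. They were searched on the transcript strand only, in the longest 3′ UTR of each gene in GENCODE M21. Of 20978 coding genes, 28.9% held at least 1 match, and 2472 held one for miR-17 (11.8%), 1642 for miR-18 (7.8%), 2407 for miR-19 and 1380 for miR-92 (6.6%). Of the 22 beta genes, 7 (31.8%) held one: Pcdhb4 and Pcdhb17 for miR-17, Pcdhb11, Pcdhb19 and Pcdhb22 for miR-18, Pcdhb14 and Pcdhb17 for miR-19, and Pcdhb8 for miR-92. The share of beta genes with a match thus lay near that of all coding genes. The alpha genes have 1 shared 3′ UTR of 2401 bases, with matches for miR-17 and miR-19, while none of the 21 gamma genes with an annotated 3′ UTR held a match in theirs (1741 to 1744 bases). A match describes these letters only and was not tested as a site of repression.

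The deletion was checked first in the counts. The 6 hairpin genes of the cluster together received 2 to 17 counts in each control library. In KO libraries they received 0, except XY KO replicate 2 at E11.5, which had 4. Mir17hg, the host gene of the cluster, was higher in KO libraries (for example 134, 152 and 150 CPM in XY KO against 46.0, 17.6 and 40.9 CPM in XY control libraries at E11.5; CPM is the count scaled to a library size of 1000000). A count over the whole gene cannot be placed inside or outside the deleted part, so it does not check the labels.

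In GENCODE M21 (GRCm38, forward strand of chromosome 18) the alpha genes span 36930184 to 37187661, the beta genes 37264938 to 37524479 and the gamma genes 37661793 to 37841873. All 14 alpha genes share 2860 exon bases and all 22 gamma genes share 2116. The median share of a gene's exon bases that also belonged to another gene was 53.56% in the alpha, 44.66% in the gamma and 0% in the beta cluster. Among beta genes, only Pcdhb21 and Pcdhb22 overlapped, over 455 bases. The counts show how little of the shared exons entered them. Pcdha7 had 0 counts in every library of both stages, and Pcdhgc5 had as few as 24 counts, whereas Pcdhgc3 reached 5592. Reads of the constant exons therefore were not added to every member, and the alpha and gamma values stand mainly for the variable exons, as far as the counting can be read from the table. Read pairs are 75 bases at each end, and 75-base stretches of a beta gene's first exon that also occur in another gene made up a median of 1.23%, at most 8.96% (Pcdhb21). Such reads, and those under an annotated antisense gene, are of uncertain origin, because the treatment of several matches and of strand is not stated. Antisense genes lay over 1559 exon bases of Pcdhgc3, 2613 of Pcdhga10 and 1927 of Pcdhb12, the only beta gene affected. Parts of other alpha and gamma genes were also covered, among them Pcdhga1, Pcdhga7, Pcdhga11 and Pcdhgb7.

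The clusters differed widely in level. Members of the alpha cluster had 0 to 17 counts per library at E11.5 and 0 to 13 at E12.5, and none of the 14 reached the filter for testing (1 CPM or more in 2 or more libraries out of 12). Summed over the cluster they came to 1.01 to 2.85 CPM at E11.5 and 0.563 to 1.92 CPM at E12.5. The alpha genes with the highest means were Pcdha5, Pcdha9, Pcdha10 and the C-type Pcdhac2. Pcdha5 had 2 to 17 counts at E11.5 and 0 to 13 at E12.5, and Pcdhac2 1 to 16 and 0 to 8. The other alpha C-type gene, Pcdhac1, had at most 5 counts in a library. A change in an alpha gene was therefore not detectable at this depth.

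Of the beta genes, 20 of 22 passed the filter at E11.5 and 21 at E12.5. Pcdhb1, the first gene of the beta cluster, had 6 counts in all at E11.5 and 1 at E12.5, and failed it at both stages. Pcdhb12 failed it at E11.5. All 22 gamma genes passed at both stages. On a scale of CPM per kb of exon not shared with another gene, Pcdhgc3 stood far above the other members. In XY controls it had 42.6 ± 7.04 CPM per kb (SD, n = 3) at E11.5 and 54.6 ± 8.13 at E12.5. In XX controls it had 43.3 ± 3.70 at E11.5 and 25.6 ± 2.299 at E12.5. Pcdhgb6 was next, with 9.27 ± 2.11 CPM per kb in E11.5 XY controls, followed by Pcdhgb7 with 6.36 ± 0.65. The lowest Pcdhgb6 library of this group lay above the highest of Pcdhgb7. The beta gene with the highest level in these gonads was Pcdhb17, at 1.69 ± 0.32 CPM per kb, next to Pcdhb20 at 1.34 ± 0.41, a difference within their spread. Pcdhgc3 alone took 37.7% to 53.2% of the summed gamma CPM of a library.

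**Figure D1:**
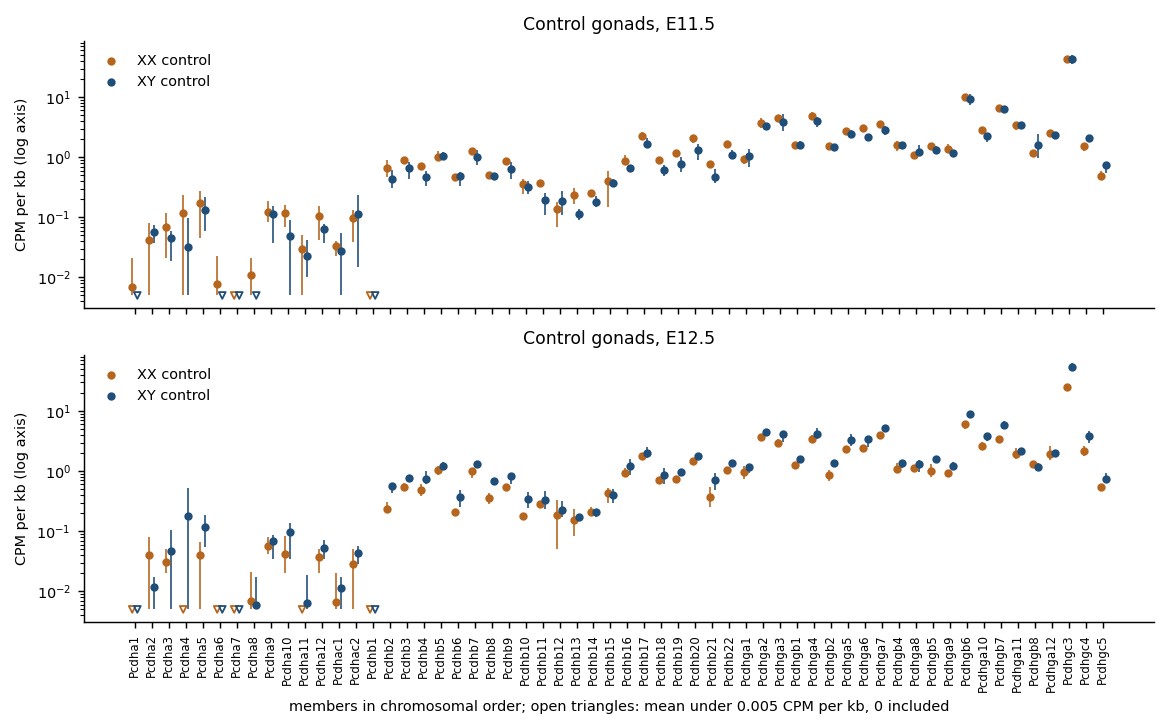
Level of each of the 58 members in XX and XY control gonads, in CPM per kb of unshared exon on a log axis, with members in chromosomal order along the x axis; points are means of 3 libraries, lines run from the lowest to the highest library (cut off at 0.005), and open triangles are means under 0.005, 0 included. Alpha genes sit mostly at the bottom, beta genes mostly in the middle and gamma genes mostly highest, with Pcdhgc3 above every other member at both stages. The clusters overlap: Pcdhb1 was at 0 in controls, and in E11.5 XX controls Pcdhb17 (2.29 CPM per kb) lay above Pcdhgc5 (0.487).

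The summed level of the beta cluster was higher in KO than in control gonads of either sex and at either stage, with no overlap of libraries. At E11.5 the beta sums were 48.7, 66.6 and 56.0 CPM in XY control and 111, 103 and 102 CPM in XY KO libraries, a ratio of means of 1.85. XX control libraries of this stage had 84.6, 76.0 and 74.3 CPM and XX KO libraries 118, 114 and 102, a ratio of 1.42. At E12.5 the sums were 78.0, 63.3 and 80.7 CPM in XY controls and 111, 103 and 103 in XY KO gonads, a ratio of 1.42. XX control libraries had 50.7, 61.1 and 58.9 CPM and XX KO libraries 79.2, 111 and 93.8, a ratio of 1.67. The gamma sums overlapped between KO and control at E12.5 in XX gonads and at E11.5 in XY gonads, with ratios of 1.13 and 1.06. In XX gonads at E11.5 the gamma ratio was 1.17 without overlap of libraries (287 to 336 CPM in control, 344 to 387 CPM in KO). In XY gonads at E12.5 the gamma sum was lower in KO, at 287 to 304 CPM against 333 to 405 CPM in controls, and without Pcdhgc3 the ratio of this comparison moved from 0.823 to 0.981. As beta CPM per 100 gamma CPM, controls ranged from 18.2 to 30.2 over both sexes and stages. XY KO libraries ranged from 31.6 to 34.6 at E11.5 and from 33.8 to 38.5 at E12.5, and XX KO libraries from 26.4 to 33.2 and from 35.8 to 46.4. The lowest XX KO library at E11.5 (26.4) lay within the range of the XX controls (22.1 to 26.5). Bulk RNA cannot tell more cells of a type from more RNA per cell, here or in the results that follow. Sums are given as descriptions, without a test.

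**Figure D2:**
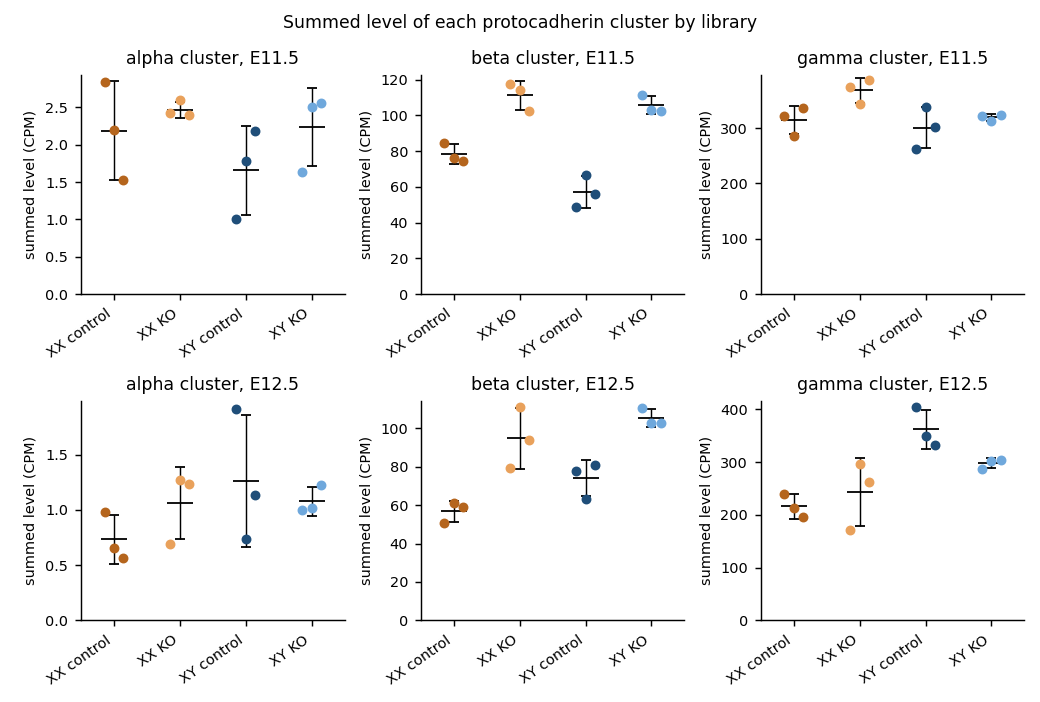
Summed CPM of the alpha, beta and gamma clusters (y axes, each from 0) in the 3 libraries of each genotype at E11.5 and E12.5; points are libraries, bars the mean with SD. The beta sum is higher in KO than in control libraries of the same sex at both stages, for example 102 to 111 CPM in XY KO against 48.7 to 66.6 CPM in XY control gonads at E11.5, while the gamma sums overlap or move the other way in XY gonads.

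In XY gonads at E11.5 the deletion went with higher levels of 10 of the 20 tested beta genes and lower levels of none. In edgeR's quasi-likelihood test at an FDR, the Benjamini-Hochberg adjusted p, under 0.05, 11 of 42 tested members were higher in XY KO than in XY control gonads and 1 was lower. Of all 14217 tested genes, 12.7% were called in this comparison, 5.88% as higher and 6.81% as lower. The median log2 fold change was 0.84 over the beta genes and 0.09 over the gamma genes, against -0.03 over all tested genes. The called beta genes were Pcdhb11, Pcdhb13, Pcdhb14, and Pcdhb16 to Pcdhb22. Libraries did not overlap, with KO higher, for 13 of 20 beta and 1 of 22 gamma genes, against 14% of all genes. Both the 10 called and the 13 without overlap include Pcdhb13, which needed KO libraries to pass the filter. The paper describes differentiation of the testicular Sertoli cells as reduced and delayed in XY KO gonads. Deletion and a delayed testis fate therefore cannot be told apart in this comparison. Of 7 Sertoli cell markers, 5 were called lower in it. Beta genes lay higher in XX than in XY controls (median log2 difference 0.46, none called). Between XX KO and XX control gonads their median was 0.41. The part of the testis fate in the XY change was not tested.

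Pcdhb16 (ENSMUSG00000047910, chromosome 18, 37477814 to 37483038, a single exon) had the lowest adjusted p of the beta genes. It had 3.17, 3.57 and 3.56 CPM in XY control and 9.11, 9.64 and 7.69 CPM in XY KO libraries. All KO libraries lay above all controls, and the log2 fold change was 1.36 (SE 0.19, FDR = 0.000608, edgeR). Pcdhb19 (ENSMUSG00000043313, 37496991 to 37504128, a single exon) had 4.04, 7.18 and 5.36 CPM in control and 14.5, 14.9 and 11.48 CPM in KO libraries. Its log2 fold change was 1.30 (SE 0.19, FDR = 0.000853, edgeR), again with no overlap. Pcdhb22 had 6.16, 8.07 and 6.07 CPM against 15.3, 12.3 and 11.48, a log2 fold change of 0.95 (SE 0.17, FDR = 0.00261, edgeR). Like Pcdhb16 and Pcdhb19, it kept its call when any of the 6 XY libraries was left out and under every other setting tried in this comparison.

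The largest changes were in beta genes of low level. Pcdhb13 had 0.505, 0.335 and 0.427 CPM (9 to 11 counts) in XY control and 1.15, 1.08 and 1.44 CPM in XY KO libraries, a log2 fold change of 1.53 (SE 0.36, FDR = 0.0133, edgeR). No XY control library reached the 1 CPM of the filter for this gene. In XX controls it was at 0.614 to 1.16 CPM (mean 0.881), so it needed KO libraries to pass. Pcdhb11 had 1.10, 0.484 and 0.949 CPM against 2.59, 2.36 and 2.204, a log2 fold change of 1.52 (SE 0.32, FDR = 0.00771). The other called beta genes changed by 0.74 (Pcdhb17) to 1.19 (Pcdhb21), and Pcdhb18 (0.83, FDR = 0.0399) was the least secure of them, losing its call in 7 of 11 alternatives. All of the called beta genes lie in the stretch from Pcdhb11 to Pcdhb22. The split at Pcdhb11 was chosen after these values had been seen. In that stretch 10 of 11 tested genes were called, with changes of 0.74 to 1.53, and Pcdhb15 was the exception. Of the 9 genes from Pcdhb2 to Pcdhb10 none was called, with changes of -0.39 to 0.85, although 5 of them had an unadjusted p under 0.05.

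**Figure D3:**
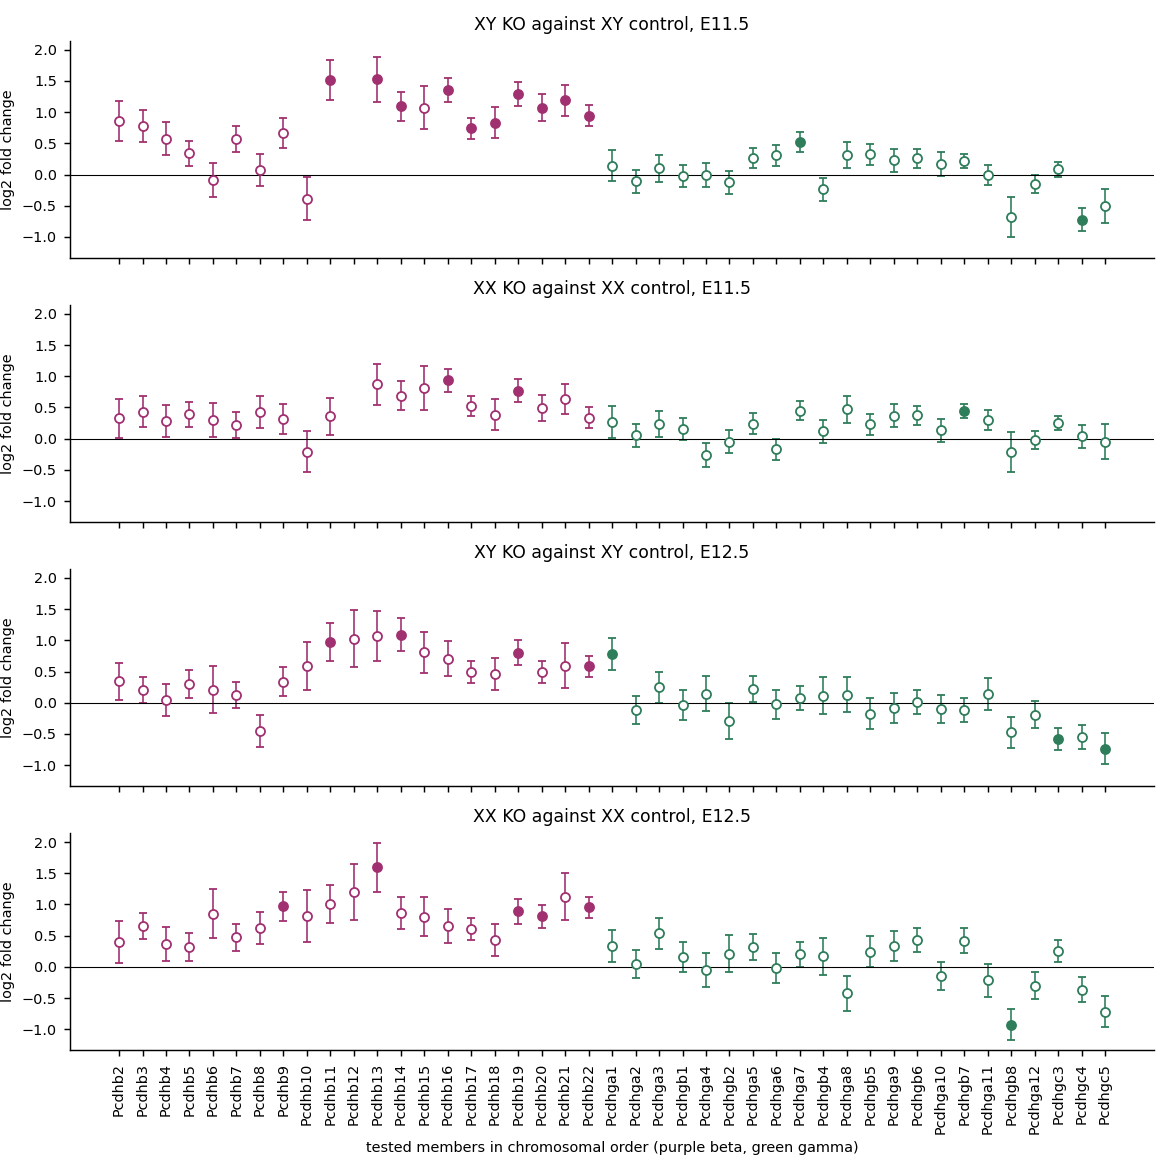
Log2 fold change of KO against control (y axis, with the standard error as bar) of each tested beta (purple) and gamma (green) gene in chromosomal order, for XY and XX gonads at E11.5 and E12.5; filled points have FDR under 0.05 in edgeR's quasi-likelihood test. Beta genes lie mostly above 0, most of all from Pcdhb11 to Pcdhb22. Gamma genes lie on both sides of 0, with 16 of 22 above it in XX gonads at E11.5. C-type genes are among the lowest gamma genes in XY gonads, except Pcdhgc3 at E11.5.

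In the gamma cluster, Pcdhga7 was higher and Pcdhgc4 lower in XY KO gonads at E11.5. Pcdhga7 had 7.26, 10.1 and 9.11 CPM in control and 12.002, 11.6 and 14.6 CPM in KO libraries, a log2 fold change of 0.53 (SE 0.16, FDR = 0.0399, edgeR), and its call was lost in 7 of 11 alternatives. Pcdhgc4, a C-type isoform needed for the survival of neurons in mice, had 7.63, 6.40 and 8.06 CPM in control and 4.96, 3.95 and 4.41 CPM in KO libraries. The groups did not overlap, and the log2 fold change was -0.72 (SE 0.18, FDR = 0.0190, edgeR), with the call lost in 5 of 11 alternatives.

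In XX gonads at E11.5, Pcdhb16, Pcdhb19 and Pcdhgb7 were higher in KO than in control, and no member was lower. Of all genes, 3.27% were called in this comparison, 1.81% as higher and 1.46% as lower. Pcdhb16 had 5.75, 4.09 and 3.89 CPM in XX control and 9.56, 9.14 and 7.38 CPM in XX KO libraries, with no overlap and a log2 fold change of 0.93 (SE 0.19, FDR = 0.0138, edgeR). Pcdhb19 had 8.83, 8.47 and 7.68 CPM against 14.4, 15.7 and 12.45, a log2 fold change of 0.77 (SE 0.19, FDR = 0.0368). Pcdhgb7 had 16.5, 16.4 and 17.8 CPM against 21.8, 23.3 and 23.5, a log2 fold change of 0.44 (SE 0.11, FDR = 0.0473). These calls are fragile: leaving out XX control replicate 2 or replicate 3 ended all of them, and leaving out XX control replicate 1, any XX KO library or XY KO replicate 1 left 1. The median was 0.41 over the beta and 0.20 over the gamma genes, against -0.00 over all genes. Although only 2 beta genes were called, 14 of 20 had all KO libraries above all controls, as did 8 of 22 gamma genes, against 12.7% of all genes. The 14 include Pcdhb13, which needed KO libraries to pass the filter. Whether the deletion changed a member differently in XY than in XX gonads was asked with an interaction term. At E11.5 no member was called for it in edgeR or in DESeq2 (0.0352% of all genes were called in edgeR), and 3 had an unadjusted p under 0.05, namely Pcdhb11, Pcdhb22 and Pcdhgc4.

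At E12.5, XX gonads showed higher levels of 5 of 21 tested beta genes without the miRNAs, and lower Pcdhgb8. The beta genes were Pcdhb9, Pcdhb13, Pcdhb19, Pcdhb20 and Pcdhb22. Of all 14348 tested genes, 5.26% were called, 3.42% as higher and 1.85% as lower. Pcdhb22 had 5.57, 6.76 and 6.94 CPM in XX control and 10.9, 14.2 and 12.2 CPM in XX KO libraries, and these did not overlap (log2 fold change 0.96, SE 0.17, FDR = 0.00913, edgeR). Pcdhb20 had 4.49, 5.65 and 5.50 CPM against 7.66, 10.3 and 9.37 (0.81, SE 0.18, FDR = 0.0230). Pcdhb19 had 5.31, 5.65 and 4.81 CPM against 7.43, 12.7 and 9.08 (0.89, SE 0.20, FDR = 0.0251). Pcdhb9 was at 1.70, 1.67 and 1.69 CPM in controls and at 3.48, 3.10 and 3.34 in KO gonads, with a log2 fold change of 0.97. Pcdhb13, at 5 to 17 counts in the control libraries, changed by 1.60. Its highest control library was at 0.858 CPM in XX and 0.695 CPM in XY gonads, so it passed the filter through KO libraries alone. All 21 tested beta genes had a positive log2 fold change, with a median of 0.81 against -0.00 for all genes and 0.16 for the gamma genes. In 15 of 21 the libraries did not overlap, against 13% of all genes. The 21 include Pcdhb13 and also Pcdhb12, which needed KO libraries to pass the filter (at most 1.01 CPM in XX and 0.956 CPM in XY controls). Pcdhgb8, which GENCODE annotates as a polymorphic pseudogene, had 3.04, 2.93 and 3.75 CPM in control and 1.35, 2.02 and 1.71 CPM in KO libraries (-0.93, SE 0.25, FDR = 0.0444, edgeR). Its call was lost in 8 of 11 alternatives. The calls of this comparison rest on few libraries: of 6 members called, 0 remained without XX control replicate 1, and 1 without either XX control replicate 2 or XX KO replicate 3, or when the 6 XX libraries were fitted alone.

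In XY gonads at E12.5, Pcdhb11, Pcdhb14, Pcdhb19, Pcdhb22 and Pcdhga1 were higher and Pcdhgc3 and Pcdhgc5 lower in KO than in control. This comparison called 20.6% of all genes, 10.3% in each direction. Of the 43 tested members 7 were called, a share below that of all genes. The paper describes XY KO gonads of this stage as already on the ovarian path, so deletion and loss of the testis fate cannot be told apart in this comparison. Pcdhb14 had 2.00, 1.52 and 2.00 CPM in XY control and 4.09, 3.51 and 4.07 CPM in XY KO libraries, with no overlap (log2 fold change 1.09, SE 0.26, FDR = 0.00810, edgeR), and it kept its call in every alternative. Pcdhb19 had 6.92, 6.33 and 7.56 CPM against 12.8, 11.2 and 12.1 (0.80, SE 0.20, FDR = 0.0104). Pcdhb11 had 1.31, 1.04 and 2.09 CPM against 3.04, 3.04 and 2.43 (0.98, SE 0.30, FDR = 0.0341), and Pcdhb22 changed by 0.58 (SE 0.17, FDR = 0.0232). The median was 0.49 over the beta genes and -0.06 over the gamma genes, with 13 of 21 beta genes free of overlap and higher in KO, against 19.8% of all genes. The 13 include Pcdhb12 and Pcdhb13, which needed KO libraries to pass the filter. In the other direction 1 of 21, Pcdhb8, was free of overlap and lower in KO, against 2767 of the 14348 tested genes. Pcdhga1 had 4.05, 2.99 and 4.34 CPM against 5.96, 7.22 and 6.22 (0.78, SE 0.26, FDR = 0.0466), a call that any left-out XY library ended. Without XY control replicate 2 the count of called members fell from 7 to 1, without XY KO replicate 1 it was 2, without XY control replicate 1 or XY KO replicate 2 it was 3, and without XY KO replicate 3 it was 4.

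Over these 4 comparisons of KO with control, 11 beta genes were called higher at least once and none lower. Pcdhb19 was called in all of them, with log2 fold changes from 0.77 to 1.30, and Pcdhb22 in 3. Another 5 were called in 2 comparisons and 4 in only 1. Of the 21 beta genes tested at one or both stages, 18 had a positive log2 fold change in every comparison in which they were tested. The exceptions were Pcdhb6, Pcdhb8 and Pcdhb10. The 18 include Pcdhb12, tested at E12.5 only, and Pcdhb13, tested at both stages. Each needed KO libraries to pass the filter wherever it was tested. In the gamma cluster 3 genes were called higher, each once, and 4 lower, each once. Such counts over the 4 comparisons together were not made for all tested genes, so they are descriptions only. Among the 11 beta genes called higher, 5 (45.5%) held a seed match and their median 3′ UTR was 2181 bases long. Among the other 11, 2 (18.2%) held one, and the median length was 900 bases, so the groups differ in length as well as in matches. Pcdhb16, Pcdhb20 and Pcdhb13, called higher in 2 comparisons each, held none of the 4 matches in the annotated UTR.

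**Figure D4:**
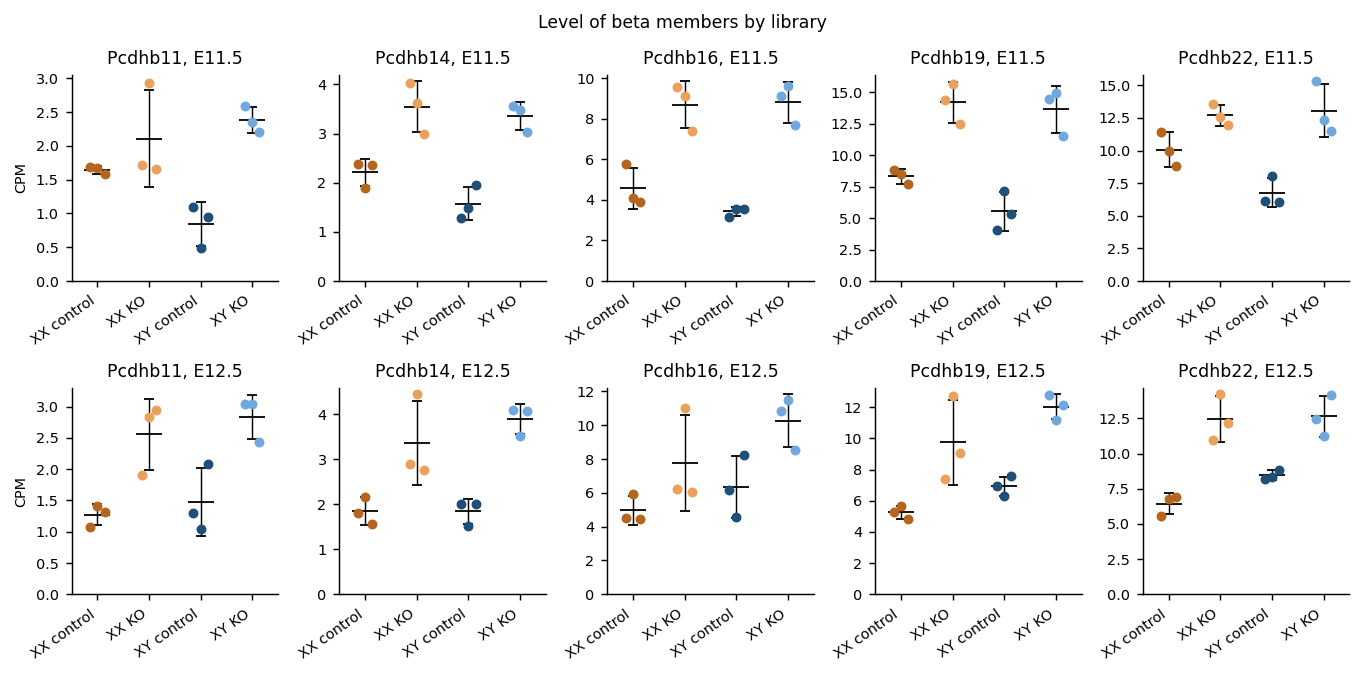
CPM (y axes from 0) of 5 beta genes in each library of the 4 genotypes at E11.5 and E12.5; points are libraries, bars the mean with SD. XY KO libraries lie above XY control libraries in each panel, and Pcdhb19 also rises in XX KO gonads, from 7.68 to 8.83 CPM in controls to 12.45 to 15.7 CPM at E11.5.

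Lower calls among the 3 C-type gamma genes came in XY gonads, for Pcdhgc4 at E11.5 and for Pcdhgc3 and Pcdhgc5 at E12.5, and in XX gonads none of them was called in either direction. Pcdhgc3 had a positive log2 fold change in 3 of the 4 comparisons of KO with control and a negative one in XY gonads at E12.5. This gene (ENSMUSG00000102918, 37806364 to 37841873) had 212, 186 and 157 CPM in XY control and 108, 133 and 130 CPM in XY KO libraries at E12.5. KO libraries lay below controls, and the log2 fold change was -0.58 (SE 0.18, FDR = 0.0340, edgeR), a call lost in 5 of 11 alternatives. XX control libraries of this stage had 93.0, 89.0 and 78.0 CPM and XX KO libraries 72.8, 127 and 111, which overlap. The interaction of sex and deletion was called for Pcdhgc3 only among the members (-0.83, SE 0.25, FDR = 0.0441, edgeR), in a test that called 12.9% of all genes at this stage. This call was lost in 11 of 16 alternatives, the replicate block among them. At E11.5 Pcdhgc3 was at 120, 168 and 145 CPM in XY control and 151, 155 and 152 CPM in XY KO libraries, with no call in either sex. Pcdhgc5 had 3.13, 3.04 and 4.26 CPM in XY control and 2.28, 1.62 and 2.24 CPM in XY KO libraries at E12.5 (-0.74, SE 0.25, FDR = 0.0491, edgeR), and each of the 11 alternatives ended this call. Pcdhgc4 at this stage had 13.1, 16.0 and 10.4 CPM in XY control and 9.82, 9.52 and 7.89 CPM in XY KO libraries, which did not overlap but were not called.

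Between the sexes, control gonads at E12.5 differed in 6 of 43 tested members, all lower in XX than in XY. Of all genes 23.8% were called, 12.4% as lower in XX, so the share of members called lower was near that of all genes. Pcdhgc3 differed most clearly, with the XX and XY values above and a log2 difference of -1.09 (SE 0.18, FDR = 0.000401, edgeR) that stayed called in every alternative. Pcdhgc4 was at 7.58, 9.18 and 6.19 CPM in XX against 13.1, 16.0 and 10.4 in XY controls (-0.79, SE 0.20, FDR = 0.00942). Pcdhgb7 was at 9.69, 9.18 and 7.94 CPM against 18.1, 12.8 and 14.9 (-0.77, SE 0.20, FDR = 0.0104), and Pcdhgb6 differed by -0.59 (SE 0.20, FDR = 0.0434), a call lost in 7 of 11 alternatives, among them total-count scaling and the replicate block. In the beta cluster Pcdhb2 (-1.25, SE 0.33, FDR = 0.0129) and Pcdhb8 (-0.91, SE 0.26, FDR = 0.0201) were lower in XX, and none of Pcdhb11 to Pcdhb22 was called. The call of Pcdhb8 was lost in 4 of 11 alternatives. The median difference was -0.39 over beta and -0.43 over gamma genes, against 0.01 over all genes. Without XY control replicate 2, 3 members were called.

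**Figure D5:**
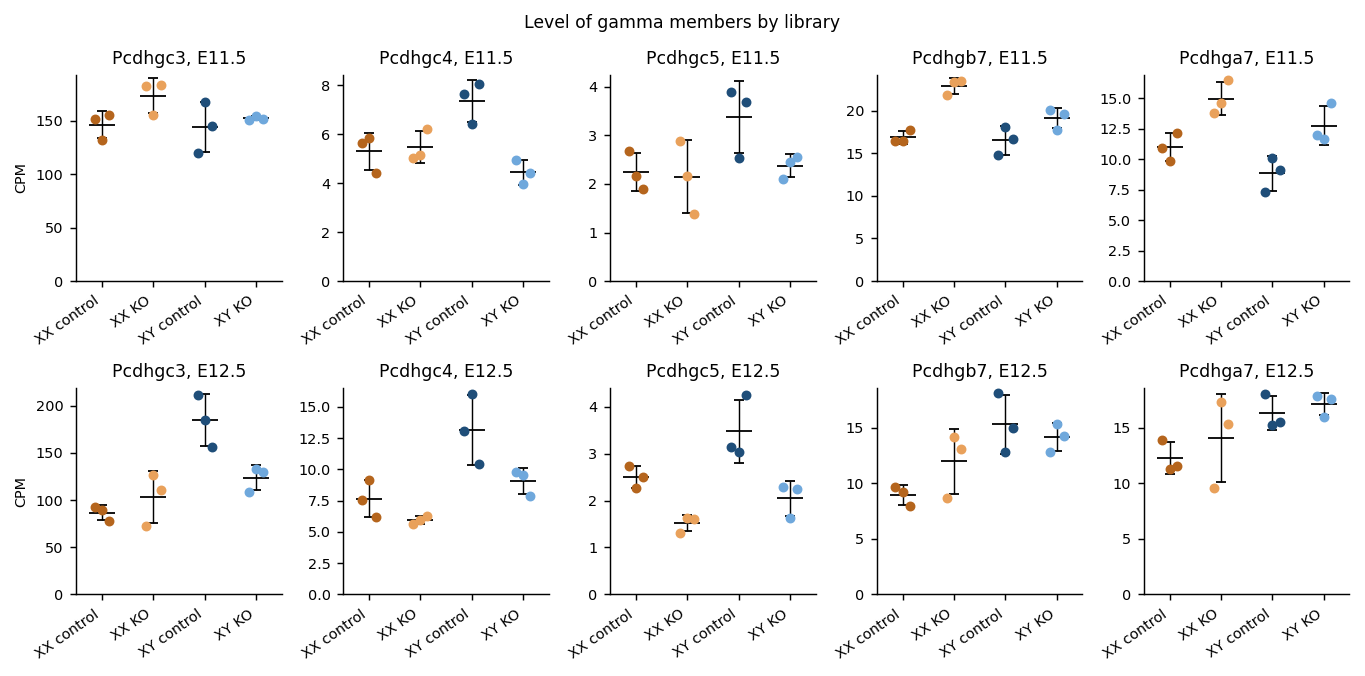
CPM (y axes from 0) of the 3 C-type gamma genes and of Pcdhgb7 and Pcdhga7 in each library of the 4 genotypes at E11.5 and E12.5; points are libraries, bars the mean with SD. At E12.5 Pcdhgc3 stands at 157 to 212 CPM in XY control libraries and at 72.8 to 133 CPM in the libraries of the other genotypes.

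At E11.5 no member was called between XX and XY controls in edgeR, where 0.886% of all genes were, and 11 had an unadjusted p under 0.05. DESeq2 called 1 member. Without XY control replicate 2 edgeR called 5. Beta genes were on the side of XX controls here, with a median log2 difference of 0.46 and 12 of 20 without overlap of libraries, against 8.93% of all genes. At E12.5 the beta medians of this comparison had the opposite sign, and tissue and kit also differ between the stages. Between XX KO and XY KO gonads no member was called at either stage in edgeR or in DESeq2. At an unadjusted p under 0.05 there were 1 and 5 members, and edgeR called 0.0844% and 0.153% of all genes. Without XX KO replicate 2, 4 members were called at E12.5.

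Genes around the clusters were listed at 1.73 to 344 kb from the nearest member. Taf7, a subunit of the general transcription factor TFIID that lies between the beta and gamma clusters, 17.59 kb from the nearest member, had a log2 fold change of -0.02 in XY and -0.40 in XX KO gonads at E11.5, of which the second was called (SE 0.10, FDR = 0.0387, edgeR). Diaph1, a formin 1.73 kb past the gamma cluster, was called in none of the KO comparisons. Of the listed neighbours, 15 were tested at E11.5 and 14 at E12.5. Of these, 1 was called lower in XX KO at E11.5 (Taf7), 1 lower in XY KO at E12.5 (Wdr55, -0.36, FDR = 0.0417), and none in XY KO at E11.5 or XX KO at E12.5. The shares of all genes called were 3.27%, 20.6%, 12.7% and 5.26%, in that order. The median over the neighbours in XY KO gonads at E11.5 was -0.06.

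Of 24 tested genes linked to protocadherin promoter choice, 3 were called higher and none lower in XY KO gonads at E11.5, where 12.7% of all genes were called and 5.88% were higher. The share called in either direction was thus near that of all genes. The list had a median of 0.06, with 14 genes positive and 10 negative. The 3 called genes encode subunits of cohesin, the ring complex that extrudes DNA loops. Rad21 had a log2 fold change of 0.42 (FDR = 0.0182, edgeR), Stag2 of 0.43 (FDR = 0.0131) and Stag1 of 0.32 (FDR = 0.0476). Ctcf, which binds the promoters, was not called (0.24, FDR = 0.0849). None of the 24 was called in the other 3 comparisons of KO with control. In XX gonads at E11.5, 19 were positive and 5 negative, with a median of 0.03. At E12.5, 11 were positive and 13 negative in XY gonads (median -0.05). In XX gonads of that stage, 4 were positive and 20 negative (median -0.21). Of 9 genes for partners and proteases, Ptk2b, the Pyk2 kinase that binds the cytoplasmic tails of alpha and gamma protocadherins, fell by 2.17 on the log2 scale at E11.5 in XY KO gonads (FDR = 0.000526) and by 2.80 at E12.5 (FDR = 1.1e-08). It was also lower in XX than in XY controls at both stages. Ncstn, a subunit of the gamma-secretase protease, was higher at E11.5 in XY (0.29, FDR = 0.0325) and XX (0.32, FDR = 0.0462) KO gonads, and Fyn, a Src-family kinase, was lower at E12.5 in XY KO gonads (-0.44, FDR = 0.0126).

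Markers of cell types that such tissue can hold moved with genotype, and their part in the protocadherin values was not tested. Neurons and neural crest cells are a known source of these genes. Their 12 markers summed to 94.6 to 130 CPM in XY control and 81.0 to 155 CPM in XY KO libraries at E11.5, with 1 of 11 tested called lower (Stmn2). At E12.5 they summed to 53.1 to 55.2 against 30.6 to 40.6 CPM, and of 6 tested, Stmn2 was called higher and Sox10 and Tubb3 lower. Sox10 is also on the Sertoli cell list. It alone was at 21.6 to 32.7 CPM in XY control and 0.468 to 1.28 CPM in XY KO libraries of that stage, and the other 11 neural markers summed to 22.5 to 31.5 and 29.3 to 40.2 CPM, which overlap. In XX libraries the sums were 58.3 to 105 CPM in control and 36.0 to 146 CPM in KO at E11.5, and 27.5 to 30.8 against 28.3 to 28.8 CPM at E12.5, with no call. The 9 markers of mesonephric tubules and duct summed to 166 to 193 CPM in XY control and 322 to 396 CPM in XY KO libraries at E12.5 (7 called higher, 2 lower). In XX libraries the sums were 355 to 410 and 358 to 476 CPM (3 called higher), and at E11.5 1 of the 9 was called lower in XY KO and none in XX KO. Of 7 Sertoli cell markers, 5 were lower at E11.5 in XY KO gonads and 7 at E12.5, where they summed to 1385 to 2078 CPM in XY control and 33.7 to 70.4 CPM in XY KO libraries. Of 7 pre-granulosa cell markers, 6 were higher in XY KO gonads at E12.5, with sums of 106 to 128 CPM in XY control and 572 to 611 CPM in XY KO libraries, and none was called in XX KO. At E11.5, 2 were higher and 2 lower in XY KO gonads (256 to 305 CPM in control, 226 to 247 CPM in KO), and 3 were lower in XX KO gonads (392 to 403 CPM in control, 280 to 333 CPM in KO, without overlap). Of 8 markers of gonadal somatic cells, 3 were higher and 2 lower in XY KO and 3 higher in XX KO gonads at E11.5, with sums of 2051 to 2277 CPM in XY control, 2166 to 2411 in XY KO, 2144 to 2276 in XX control and 2415 to 2688 in XX KO libraries. At E12.5, 3 were higher and 2 lower in XY KO and 2 higher in XX KO. Of 6 germ cell markers, 3 were lower in XY KO and 2 in XX KO gonads at E12.5, with sums of 885 to 1227 CPM in XY control, 664 to 807 in XY KO, 836 to 1512 in XX control and 356 to 796 in XX KO libraries. Of 6 endothelial markers 2 were higher in XY KO at E12.5, of 5 macrophage markers 1 was lower in each sex at E11.5 (73.0 to 95.1 CPM in all controls and 43.2 to 65.0 CPM in all KO libraries), and no erythroid marker was called in a comparison of KO with control. No marker of the lists was at 0 throughout a genotype, except 3 or 4 of the 7 erythroid markers and 1 neural marker in XY controls at E12.5.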

How the data were processed

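The authors aligned read pairs to mm10 with Subread, used featureCounts to count them per gene, and deposited these raw counts as 1 table per stage. The annotation, the strand setting and the handling of reads matching several genes are not given in the sources used here. Library totals were 11877379 to 44155275 counts. Libraries were grouped by the sample labels; nothing in them ties a library to single embryos, so p-values measure the spread between libraries. Genes with at least 1 CPM in at least 2 of 12 libraries were tested (14217 at E11.5, 14348 at E12.5) with edgeR 4.0.16 (R 4.3.3, limma 3.58.1): TMM normalization, robust quasi-likelihood fit on all 12 libraries of a stage, Benjamini-Hochberg over all tested genes, FDR under 0.05. SE was derived from the log2 fold change and its F statistic. CPM values use TMM-scaled library sizes, except those of Mir17hg, which use total counts. The script was tested on simulated data. Alternatives were DESeq2 1.42.0, total-count scaling, no filter, a replicate block, the 6 compared libraries alone, and leaving out each library. Each named call was rerun in 11 alternatives (16 for the interaction), leaving out only libraries of the genotypes compared. Named genes are members called in any comparison, the top 3 per cluster by mean CPM, C-type members, neighbours, and called genes of the lists. Members and lists were chosen with earlier results of these data known. Gene positions, exon sharing and 3′ UTRs come from GENCODE M21 (GRCm38), matched by Ensembl ID for all 58 members. The 12 columns of per-sample values in the Foxl2 tables were not used. Sequences of the members are not reported here.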

Additional observations from a re-analysis of the deposited data

Results flagged for a closer look

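The effect of the deletion on Pcdhgc3 was called different between XY and XX gonads at E12.5 in the main edgeR fit. In XY gonads of this stage, deletion and the loss of the testis fate that the paper describes cannot be told apart. The log2 fold change of KO against control was lower in XY than in XX gonads by -0.83 (edgeR quasi-likelihood interaction test, FDR = 0.0441), with -0.58 in XY and 0.25 in XX gonads. The call was lost with the replicate block and when any of 10 of the 12 libraries was left out, with log2 values of -1.03 to -0.66 over all alternatives. No group of 4 or more libraries exists in these comparisons, so single libraries were not tested as outliers.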

How the results depend on the processing

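Between XY KO and XY control gonads at E11.5, 9 to 18 members were called in the alternatives run, in place of 12 (18 without XY control replicate 2), and Pcdhb18 and Pcdhga7 each lost their call in 7 and Pcdhgc4 in 5 of 11. With total-count scaling, 1 in place of 3 members was called between XX KO and XX control at E11.5. With DESeq2, 10 in place of 6 were called between XX KO and XX control at E12.5 and 1 in place of 0 between XX and XY controls at E11.5. With the 6 compared libraries alone, 1 in place of 6 was called between XX KO and XX control at E12.5. The replicate block left 0 in place of 1 for the interaction at E12.5; numbers did not pair the libraries (same-number correlations of residuals from -0.304 to 0.450 at E11.5 and -0.507 to 0.388 at E12.5; 5 and 3 of 12 libraries correlated best with their own number). Leaving out 1 library gave 0 to 4 in place of 3 for XX KO against XX control at E11.5, 1 to 7 in place of 7 for XY KO and 0 to 7 in place of 6 for XX KO against control at E12.5, 3 to 7 in place of 6 between controls at E12.5, 0 to 5 in place of 0 between controls at E11.5, 0 to 4 in place of 0 between XX KO and XY KO at E12.5, and 0 to 1 for the interaction at E12.5. Of 35 calls of named members no direction changed in any alternative. Of 175 uncalled values of named members, 47 changed direction and 21 were called in at least 1 alternative. Medians of the beta and gamma clusters kept their sign in each KO comparison and between controls under TMM, total-count and DESeq2 scaling. Depth limits the alpha cluster, where no member reached the filter, and low beta genes such as Pcdhb13.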

Other observations

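Of 12 tested protocadherins that lie outside the clusters, none was called between KO and control gonads of either sex at E11.5 in edgeR, where 12.7% of all genes were called in XY and 3.27% in XX gonads. At an unadjusted p under 0.05 there were 3 in XY and 1 in XX gonads. At E12.5, 4 were higher and 1 lower in XY KO than in XY control gonads, against 20.6% of all genes called. The stages were not compared by a test. Pcdh18 was at a mean of 209 CPM in XY control and 451 CPM in XY KO gonads (log2 fold change 1.11, SE 0.13, FDR = 1.6e-05, edgeR quasi-likelihood test). Pcdh8 was at a mean of 17.4 CPM in XY control and 3.54 CPM in XY KO gonads and fell by 2.32 on the log2 scale (SE 0.30, FDR = 6.5e-05). Pcdh11x (1.03), Pcdh20 (1.07) and Pcdh7 (0.96) were also called higher. In XX gonads Pcdh8 was the only one of the 12 called, with 1.32 CPM in control and 4.39 CPM in KO gonads (1.73, SE 0.33, FDR = 0.0125), and the interaction of sex and deletion was called for Pcdh8 (-4.04, FDR = 2.8e-05), Pcdh18 (1.17, FDR = 0.00041) and Pcdh11x (1.35, FDR = 0.0474). Both Pcdh8 and Pcdh18 also differed between controls, with Pcdh8 lower (-3.72) and Pcdh18 higher (0.88) in XX than in XY.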
